A study of Mus musculus with 4 samples.

Results

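The comparison set cells given a negative-control siRNA, named siNeg, against wild-type cells given no siRNA. It covered 2 of the 4 RNA sequencing libraries of a study of the kinase DYRK2 and Hedgehog signalling, and its members were the 12377 of 55573 listed genes with at least 1 FPKM in either library (FPKM is fragments per kilobase of exon, scaled to the fragments assigned to genes, so levels of different genes can be compared per length). All cells were primary mouse embryonic fibroblasts, that is, fibroblasts grown out of embryos and used before they become a line. All had received 100 nM SAG, an agonist of Smoothened that turns on the Hedgehog pathway, for 24 h. The other libraries were Dyrk2 knockout cells without siRNA and wild-type cells given an siRNA against Dyrk2, named siDyrk2. Each group was 1 library. The sources used here do not say how the siRNA was delivered, what its base sequence is, whether the wild-type culture had a mock treatment, or which embryos gave which culture, so the siRNA, its delivery and the culture cannot be told apart. No test was possible within the comparison: values are given with exact 95% intervals that cover the counting of fragments only.

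An siRNA is a short RNA duplex. One strand, the guide, is loaded onto an Argonaute protein and directs it to mRNAs that pair with the guide. Full pairing leads to cleavage of the mRNA, whereas pairing of only the seed, the few bases near the guide's 5′ end, can lower many mRNAs weakly, much as a microRNA does, mostly through sites in 3′ untranslated regions (3′ UTRs). RNA duplexes and the reagents that carry them into cells can also be sensed by innate immune receptors and alter growth, and for these reasons a control siRNA is compared with untreated cells.

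Most genes were at nearly the same level in both libraries, and the differences that were larger lay mainly below the wild-type level. Differences are given as log2 ratios of FPKM + 1, siNeg against wild type. Over 10896 protein-coding genes the median ratio was -0.00, and 95% of ratios lay between -0.49 and 0.41. Only 2 protein-coding genes were at least 2-fold higher (0.0184%) and 15 at least 2-fold lower (0.138%). At 1.5-fold there were 66 higher (0.606%) and 157 lower (1.44%). Over all gene types 47 genes were at least 2-fold higher (0.38%) and 72 lower (0.582%), but 90 of these 119 genes (0.961%) had no more than 20 fragments in the better covered library. Among the 119 were 38 microRNA hairpins and 21 small nucleolar RNAs, short RNAs for which few fragments make large ratios, and 25 processed pseudogenes. All 17 protein-coding genes, and 43 of the 119, had a counting interval that excluded equal levels. The median ratio of protein-coding genes lay between -0.02 and 0.00 in each class of exonic length and between -0.03 and 0.04 in each class of level.

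For the genes farthest below wild type, siNeg was in most cases the lowest of the 4 libraries. Among the 15 lowest protein-coding genes with at least 5 FPKM, siNeg was the lowest of the 4 libraries in 14, and in 12 it was at least 1.5-fold below each of the other 3. In the remaining gene, Plagl1, siDyrk2 was lower still. In 8 of the 15, Mt2, Ccl2 and Plagl1 among them, siDyrk2 also lay below both libraries without siRNA. The second pair, siDyrk2 against Dyrk2 knockout, shares no library with the first, but its members also differ in how Dyrk2 was lowered and in their embryo, since 4 Y-linked genes were read at 0.87 to 8.28 FPKM in the knockout and at no more than 0.02 in the other libraries. In that pair 10 of the 15 genes were within 1.5-fold. Of the 157 protein-coding genes at least 1.5-fold lower with siNeg, siNeg was the lowest library in 137, and in 48 it was at least 1.5-fold below the other 3. Over all protein-coding genes siNeg was the lowest library in 26.8%. Genes lower with siNeg by any size are the closer reference, and among these 5469 siNeg was the lowest in 53.4%.

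**Figure D1:**
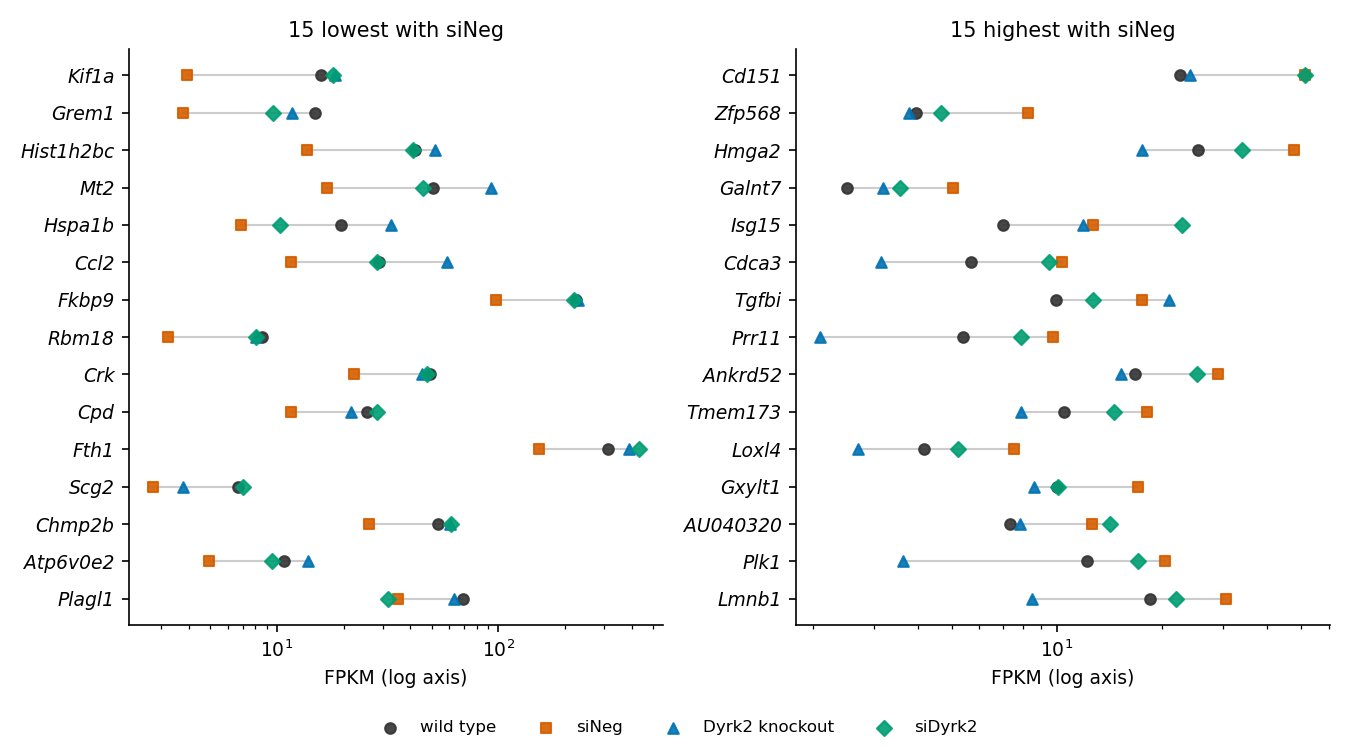
FPKM on a log axis in the 4 libraries for the 15 protein-coding genes lowest (left) and highest (right) with siNeg against wild type, 1 point per library and a grey line over their range. On the left the siNeg square stands alone at the low end in most rows, whereas in rows such as Cd151 on the right the siNeg and siDyrk2 points lie together, apart from the other 2 libraries.

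Kif1a, a kinesin motor that carries synaptic vesicle precursors along microtubules, had the lowest ratio of any protein-coding gene. It was at 15.8 FPKM in wild type, 3.92 with siNeg, 18.3 in the knockout and 17.9 with siDyrk2. Only the siNeg library was low, 4.04-fold below wild type (counting interval 3.72 to 4.37). Grem1 encodes Gremlin 1, a secreted antagonist of bone morphogenetic proteins (BMPs). Its 4 values, in the same order, were 14.9, 3.78, 11.7 and 9.60 FPKM, a 3.93-fold lower level with siNeg (3.48 to 4.46). Hist1h2bc, a histone H2B gene, was at 41.9, 13.6, 51.7 and 41.3 FPKM. Fkbp9, an isomerase of the endoplasmic reticulum that helps proteins fold, was at 224, 97.7, 229.7 and 219 FPKM. Its 3 other libraries lay within a narrow band and siNeg was 2.30-fold below wild type (2.23 to 2.36). Crk, an adaptor protein of receptor tyrosine kinase signalling, was at 48.8, 22.2, 45.2 and 47.6 FPKM. Cpd, a carboxypeptidase of the Golgi, was at 25.5, 11.6, 21.6 and 28.3 FPKM.

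Of the 15 lowest protein-coding genes with at least 5 FPKM, these 6 are shown because their 3′ UTR holds the 6-base word GACGTA. Mt2, Hspa1b, Ccl2 and Rbm18, at -1.54, -1.38, -1.24 and -1.18, were also lower than Crk and Cpd but hold no copy there. The word came out of a scan of all 4096 words of 6 bases against the ratios. The stretches that hold it are shown because the remaining results on these genes turn on the word and its neighbours. Each is 30 bases of the annotated mRNA strand, 5′ to 3′, from the GRCm38 genome with GENCODE M21 transcripts, and the word is in capitals.
Kif1a, chr1:93015561-93015590, minus strand: tcataaccacctGACGTAatgactagtatc
Grem1, chr2:113748531-113748560, minus strand: aaaaatgctttaGACGTAcagaatctttca
Grem1, chr2:113747080-113747109, minus strand: ggacgcactggtGACGTAatggtgcacatt
Hist1h2bc, chr13:23692351-23692380, plus strand: gaaagacacacaGACGTAgaaaatgagaat
Fkbp9, chr6:56879183-56879212, plus strand: ggcactcactctGACGTAatcaggacattt
Crk, chr11:75703740-75703769, plus strand: cctgtatgagaaGACGTAaatacattgcct
Crk, chr11:75703907-75703936, plus strand: ccccactcccatGACGTAatcatgcactgt
Cpd, chr11:76780796-76780825, minus strand: agtcttaccaatGACGTAacagtttaatat
Msrb3, chr10:120781330-120781359, minus strand: cttaatgcaaatGACGTAgctgttggaaca
Ryk, chr9:102907089-102907118, plus strand: gcttttaacgatGACGTAataacgcagagt
Hsp90aa1, chr12:110691334-110691363, minus strand: cgtttgttataaGACGTAacgtaacctact
H1f0, chr15:79029506-79029535, plus strand: tgtaatgatggaGACGTActtttttcttga

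The scan took the longest annotated 3′ UTR of each of 10856 protein-coding genes, read on the mRNA strand. GACGTA was present in 529 of them (4.87%). Genes with the word had a median ratio of -0.15 and genes without it 0.00, a difference of -0.151 that was the lowest of the 4096 words. The next lowest word was at -0.0486, the highest at 0.0318, and 95% of words lay between -0.0197 and 0.0107. Because the word was picked as the lowest of this scan, its rank here is a description. In the second pair, which did not enter the choice, the difference for GACGTA was -0.0396 and ranked 3458 of 4096, inside the range of 95% of words (-0.0661 to -0.0277). In knockout against wild type, which shares the wild-type library, it was 0.002 (rank 2073). At least 1.5-fold lower with siNeg were 8.70% of the genes with the word and 1.07% of those without. In the second pair these shares were 4.35% and 4.12%. The base sequence of siNeg is not known here, so whether the word pairs with its guide was not tested.

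**Figure D2:**
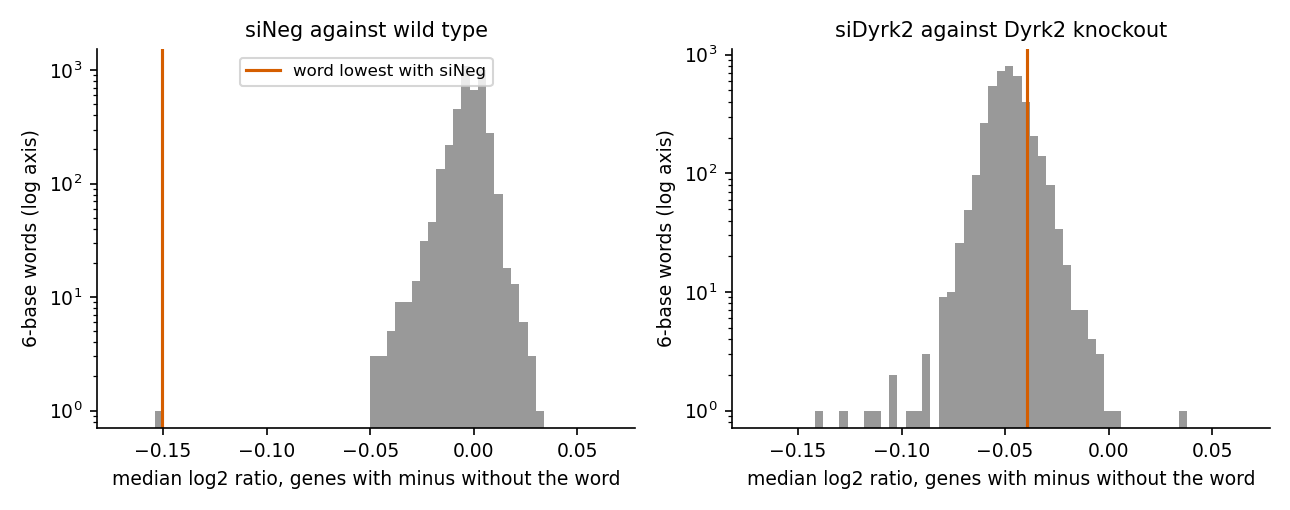
Number of 6-base words (log axis) by the difference in median log2 ratio between genes with and without the word in their 3′ UTR, for both pairs of libraries. The orange line marks the word lowest with siNeg, at -0.151 and far from the other words on the left, and at -0.0396 within them on the right.

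The ratio was also described by the number of copies of the word and by the bases beside it. These values are the same ratios that chose the word, and the combination of neighbouring bases was picked from them, so they are a description and no further support. The median was 0.00 for the 10327 genes without a copy, -0.14 for 498 genes with 1 copy and -0.30 for 31 genes with at least 2 copies, of which 8 were at least 1.5-fold lower (25.8%). In the second pair the medians were 0.03, -0.01 and -0.05, and 4 of the 31 were at least 1.5-fold lower there (12.9%), against 4.12% of genes without the word. Grem1 and Crk hold 2 copies, as do Socs5, a suppressor of cytokine signalling, and Pard3b, a cell polarity protein. Among genes with 1 copy, the median was -0.20 with A, -0.23 with C and -0.17 with T just before the word, but -0.07 with G there. It was -0.23 with A just after it, against -0.15, -0.07 and -0.14 with C, G and T. The 108 genes with A, C or T before and A after had a median of -0.25. For these, Kif1a, Fkbp9 and Cpd among them, siNeg was the lowest library in 69.4%. The 783 genes that hold the word only upstream of the 3′ UTR in the same transcript had a median of -0.04.

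The 18 words that differ from GACGTA by 1 base had differences of -0.0255 to 0.00404, and the reverse complement, TACGTC, had 0.00907. The words next lowest in the scan include 4 that overlap GACGTA by 5 bases. Long 3′ UTRs hold more words of any kind: the median UTR length was 2729 bases with the word and 1145 without it for genes with no copy. Within 4 classes of UTR length with equal numbers of genes, from shortest to longest, the median ratio with the word was -0.23, -0.23, -0.16 and -0.13, and without it -0.00, 0.00, 0.01 and 0.01.

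**Figure D3:**
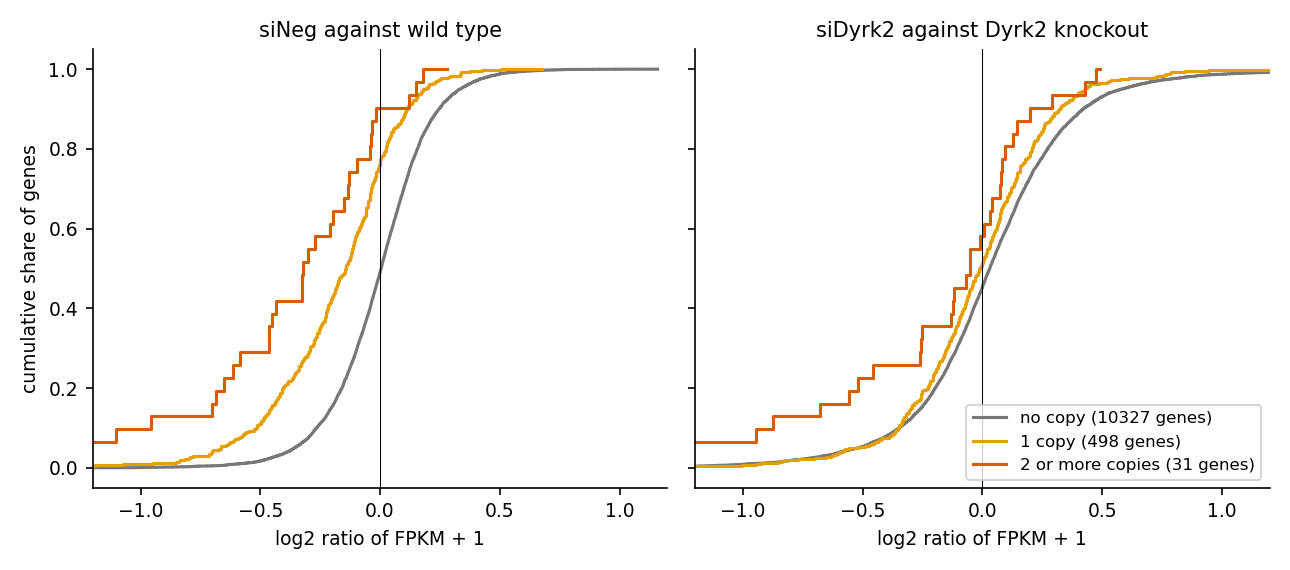
Cumulative share of genes by log2 ratio, for genes with no copy (10327), 1 copy (498) and 2 or more copies (31) of the 6-base word in the 3′ UTR. With siNeg against wild type the curves separate, with medians of 0.00, -0.14 and -0.30, and in siDyrk2 against Dyrk2 knockout the medians are 0.03, -0.01 and -0.05.

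The share of genes with the word was then counted among the genes that were low. It was in 6 of the 15 genes at least 2-fold lower (40%), in 46 of 156 at least 1.5-fold lower (29.5%) and in 18 of the 48 with siNeg 1.5-fold below the other 3 libraries (37.5%). It was in 5 of the 54 genes at least 1.5-fold lower in both pairs (9.26%) and in 1 of the 66 at least 1.5-fold higher (1.52%). These shares repeat the choice of the word and are no further support for it. Msrb3, a methionine sulfoxide reductase, was at 56.3 FPKM in wild type, 28.8 with siNeg, 54.9 in the knockout and 56.6 with siDyrk2. Ryk, a receptor for Wnt ligands, was at 50.1, 28.8, 48.3 and 60.0 FPKM. H1f0, a linker histone of resting cells, was at 87.3, 56.1, 92.0 and 94.4 FPKM. Hsp90aa1, an inducible HSP90 chaperone, was at 74.1, 47.1, 71.0 and 74.9 FPKM. In each of these 4 genes siNeg was low and the other 3 libraries lay close together. Receptors and kinases also stood among the genes with the word. Egfr, the epidermal growth factor receptor, was at 19.96 FPKM in wild type, 11.9 with siNeg, 16.05 in the knockout and 13.8 with siDyrk2. For Egfr both siRNA libraries lay below both others. Map2k4, a kinase upstream of JNK, was at 15.9, 9.67, 15.8 and 16.5 FPKM in the same order. Nr4a1 and Id2 hold the word as well, and both were also lower in the second pair, Id2 at -0.84 and -0.92 and Nr4a1 at -0.71 and -0.61.

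Some genes with their lowest value in siNeg have no copy in their longest 3′ UTR. Rbm18, an RNA-binding protein, was at 8.57 FPKM in wild type, 3.23 with siNeg, 8.01 in the knockout and 8.07 with siDyrk2. Fth1, the ferritin heavy chain that stores iron, was at 313, 152, 388 and 429 FPKM, and Chmp2b, a subunit of the ESCRT-III membrane-cutting complex, at 53.2, 26.1, 60.2 and 60.8. Atp6v0e2, a subunit of the proton pump of acid organelles, was at 10.7, 4.92, 13.8 and 9.47 FPKM. For Atp6v0e2 siDyrk2 also lay below both libraries without siRNA, with a ratio of -0.50 in the second pair. In all 4 genes the siNeg value was the lowest by a wide gap. Fth1 holds 1 copy upstream of the 3′ UTR in the same transcript. Scg2, a secretory granule protein, was low in siNeg (2.77 FPKM) and in the knockout (3.76), and higher in wild type (6.65) and with siDyrk2 (7.02), so that its ratios were -1.02 and 0.75 in the pairs.

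A second group of genes was lower in both pairs. Of the 157 protein-coding genes at least 1.5-fold lower with siNeg, 54 (34.4%) were also at least 1.5-fold lower in siDyrk2 against Dyrk2 knockout, where 4.11% of all protein-coding genes were. In 104 of the 157 both siRNA libraries lay below both others, as they did in 21.6% of all protein-coding genes and in 43.1% of those lower with siNeg by any size. Mt2, a metallothionein that binds zinc and copper, was at 50.6 FPKM in wild type and 16.8 with siNeg, and at 92.4 in the knockout and 45.5 with siDyrk2. Its ratios were -1.54 and -1.004, but the siDyrk2 level was close to wild type. Mt1 was at 41.4, 23.3, 61.5 and 48.3 FPKM, in the same order of libraries. Its ratios were -0.80 and -0.34, and its siDyrk2 level lay above wild type. Hspa1b, an inducible HSP70 chaperone, was at 19.5, 6.86, 32.6 and 10.3 FPKM, with ratios of -1.38 and -1.57. Its near-identical neighbour Hspa1a had ratios of -0.84 and -1.30, and the sources used here do not say how fragments were divided between these copies. Both siRNA libraries were below both others for each of them. Of the 12 measured heat shock genes 8 were lower and 4 higher in siNeg against wild type, with a median of -0.07. Hspa8 and Hspd1, constitutive chaperones, were among the higher ones, at 0.12 and 0.15.

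Ccl2, a chemokine that attracts monocytes, was at 28.8 FPKM in wild type, 11.6 with siNeg, 58.9 in the knockout and 28.4 with siDyrk2. Its ratios were -1.24 and -1.03, but here too the siDyrk2 level was close to wild type and the knockout level was the highest. Ptgs2, the inducible cyclooxygenase of prostaglandin synthesis, was at 5.67, 2.68, 5.73 and 2.68 FPKM, so the siRNA libraries had 1 level and the others another. Mmp9, a matrix metalloproteinase, was at 2.5, 0.48, 3.94 and 0.86 FPKM. Plagl1, an imprinted zinc finger factor that restrains growth, was at 69.2, 35.2, 63.2 and 31.6 FPKM, again with no overlap between siRNA libraries and the others. Igfbp5, a secreted protein that binds insulin-like growth factors, was at 261, 136, 377 and 141 FPKM. Sfrp2, a secreted Wnt antagonist, was at 85.1, 45.8, 281 and 78.8 FPKM, with ratios of -0.88 and -1.82. Its knockout level was the highest, and its siDyrk2 level was close to wild type. None of Mt2, Hspa1b, Ccl2, Ptgs2, Plagl1 and Igfbp5 holds the word in its longest 3′ UTR.

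**Figure D4:**
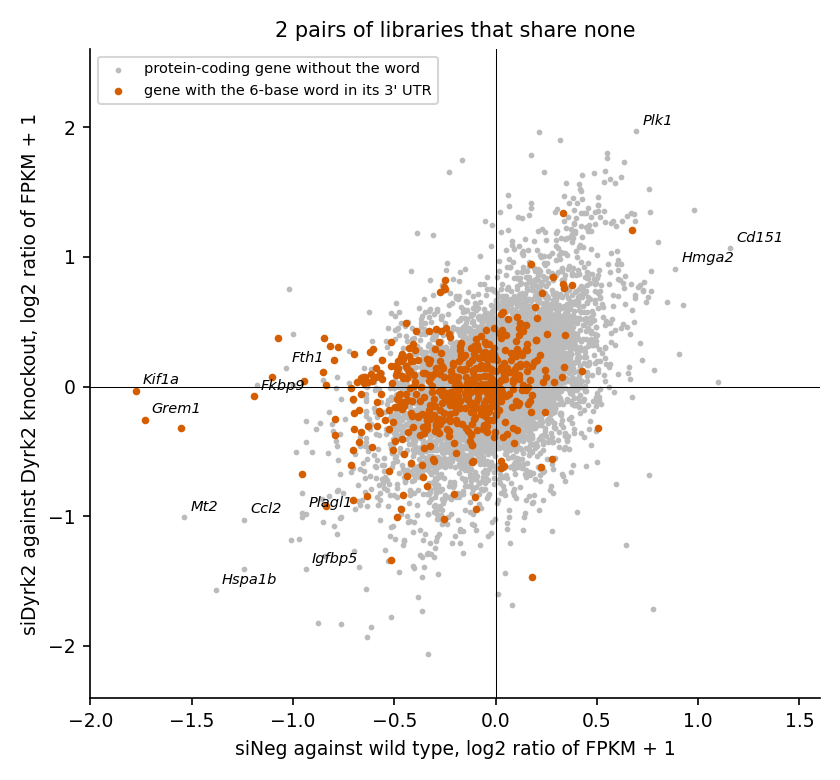
Log2 ratio of FPKM + 1 for siNeg against wild type (horizontal) and siDyrk2 against Dyrk2 knockout (vertical), 1 point per protein-coding gene, orange where the 3′ UTR holds the 6-base word. Kif1a, Grem1 and Fkbp9 lie far left and near the horizontal line at 0, Mt2, Ccl2 and Hspa1b lie low in both pairs, and Cd151, Hmga2 and Plk1 lie high in both.

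The highest genes, in contrast, were mostly high in both siRNA libraries. Of the 66 protein-coding genes at least 1.5-fold higher with siNeg, 44 (66.7%) were at least 1.5-fold higher in the second pair, against 4.87% of all protein-coding genes. In 57 of them both siRNA libraries lay above both others, against 24.9% of all protein-coding genes and 50.5% of the 5380 higher with siNeg by any size. Cd151, a tetraspanin that binds laminin-binding integrins at the cell surface, was at 22.5 FPKM in wild type, 51.6 with siNeg, 24.0 in the knockout and 51.4 with siDyrk2. The siRNA libraries agree to within 1 FPKM and stood 2.29-fold above wild type (2.15 to 2.44, siNeg against wild type). Hmga2, a chromatin protein of embryonic and growing cells, was at 25.4, 47.8, 17.5 and 33.8 FPKM. Tmem173, which encodes the DNA-sensing adaptor STING, was at 10.5, 18.1, 7.89 and 14.6 FPKM. Ankrd52, a subunit of a phosphatase complex that acts on Argonaute proteins, was at 16.8, 29.0, 15.3 and 25.3 FPKM. Loxl4, an enzyme that crosslinks collagen, was at 4.16, 7.53, 2.70 and 5.21 FPKM. In each of these the 2 siRNA libraries were the highest, without overlap.

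A few genes were high in siNeg alone. Zfp568, a repressor with a KRAB domain, was at 3.95 FPKM in wild type, 8.26 with siNeg, 3.76 in the knockout and 4.67 with siDyrk2. Gxylt1, a xylosyltransferase that extends sugars on Notch, was at 9.99, 17.1, 8.57 and 10.1 FPKM. Nras, a RAS GTPase, was at 19.1, 28.6, 17.3 and 17.2 FPKM. Oard1, which removes ADP-ribose from proteins, was the other gene at least 2-fold higher, at 0.16, 1.48, 0.21 and 0.24 FPKM (named after its value was seen). Tgfbi, a matrix protein induced by TGF-beta, was at 9.96, 17.5, 20.9 and 12.7 FPKM. Here wild type was the lowest and the knockout the highest library. Angpt2, an angiopoietin, was the reverse case of a gene high in wild type alone, at 16.8 FPKM against 10.1 to 10.8 in the other 3 libraries.

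Gene groups were then described by how many of their measured members were higher or lower by any size, which over all 12377 genes was 48.7% and 50.9%, with a median ratio of -0.01. Cell division genes were nearly all higher. Of 37 measured genes of G2 and mitosis, 36 were higher and 1 lower, with a median of 0.46, and siNeg was the highest of the 4 libraries in 29, as it was in 25.5% of all protein-coding genes and in 51.7% of those higher by any size. Plk1, a mitotic kinase, was at 12.2 FPKM in wild type, 20.4 with siNeg, 3.62 in the knockout and 17.1 with siDyrk2. Mki67, a marker of cycling cells, was at 13.4, 21.4, 4.58 and 17.6 FPKM, and Ccna2, cyclin A2, at 16.9, 25.1, 6.11 and 23.8. In all 3 the knockout was the lowest library and both siRNA libraries exceeded wild type. Among 36 genes of G1/S and DNA replication 33 were higher, with a smaller median of 0.14. Of 12 quiescence genes 11 were lower, with a median of -0.18, whereas of the 10 cell cycle inhibitors in the same list 5 were higher and 5 lower, with a median of 0.01. The second pair had medians of 1.36, 0.72 and -0.35 for the G2 and mitosis, replication and quiescence genes, and there the low level of the knockout enters. In bulk RNA, more dividing cells and more of these mRNAs per cell cannot be told apart.

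Immediate early genes, which serum and stress switch on within minutes, were lower. Of 29 measured genes 24 were lower and 5 higher, with a median of -0.28 in the first pair and -0.27 in the second. All 6 measured subunits of the AP-1 factor were lower, with a median of -0.53. Jun was at 38.6 FPKM in wild type, 24.2 with siNeg, 41.4 in the knockout and 26.02 with siDyrk2, and Fos at 3.87, 2.15, 4.45 and 2.87, so that for both the siRNA libraries were below the others without overlap. Egr1, a zinc finger factor, was at 20.5, 13.2, 21.7 and 16.6 FPKM. Atf3, a stress factor, was at 6.77, 3.56, 11.1 and 4.99 FPKM. Among the phosphatases and Sprouty proteins that damp growth factor signalling, 3 were lower and 3 higher. Dusp6, a phosphatase of ERK, was at 5.59, 8.17, 4.07 and 6.57 FPKM, the opposite order to Jun. Of the 29 genes 2 hold the 6-base word, and the median without them was also -0.28.

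Genes of nucleic acid sensing as a whole lay near the median of all genes, whereas interferon-stimulated genes were mostly higher. Among 18 measured sensors, signal adaptors and members of the RNase L system 9 were higher and 9 lower, with a median of 0.02. The 6 measured sensors of this list had 4 higher and 2 lower, with a median of 0.15. Ddx58, which encodes the RNA sensor RIG-I, was at 6.97 FPKM in wild type and 7.58 with siNeg. Ifih1, which encodes MDA5, was at 1.89 and 2.6 FPKM. Eif2ak2, the kinase PKR, was at 11.5 and 11.3 FPKM. The interferon genes Ifnb1 and Ifna4 did not reach 1 FPKM. Of 23 interferon-stimulated genes 19 were higher and 4 lower, with a median of 0.23, and 1, Isg15, was at least 1.5-fold higher. Isg15, a ubiquitin-like modifier, was at 7.02, 12.7, 11.8 and 22.8 FPKM in wild type, siNeg, knockout and siDyrk2. Bst2, an antiviral membrane protein, was at 26.3, 37.97, 44.9 and 55.1 FPKM. Wild type was the lowest library in 17 of the 23, against 1581 of 10896 protein-coding genes (14.5%). Those 1581 all lie among the 5380 protein-coding genes higher with siNeg by any size, which are the closer reference. In the knockout, which had no siRNA, the summed level of the list was 587 FPKM. It was 444 in wild type, 525 with siNeg and 722 in siDyrk2 cells.

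Macrophage markers were higher as well. Of the 20 macrophage and leukocyte markers that were measured, 20 were higher with siNeg, with a median of 0.32. Wild type was the lowest of the 4 libraries for all 20, against 14.5% of all protein-coding genes. The summed level of the markers was 322 FPKM in wild type, 379 with siNeg, 629 in the knockout and 473 with siDyrk2. Fcer1g, an Fc receptor chain, was at 9.28, 15.2, 18.3 and 19.7 FPKM, C1qa, a complement component, at 13.8, 20.6, 21.9 and 24.8, and Csf1r, the receptor for macrophage growth factor, at 4.00, 6.09, 7.96 and 6.18. In the second pair the median was -0.14, so that the 2 pairs differed in direction. The defining markers Ptprc, Itgam and Aif1 were below 1 FPKM in both libraries of the comparison. Fewer cells of a type and less RNA per cell cannot be told apart in these bulk samples, and the part of macrophage RNA in the interferon-stimulated genes was not tested. All 13 fibroblast markers were measured, 8 lower and 5 higher with siNeg, with a median of -0.01. Col1a1 was at 3233 FPKM in wild type and 3208 with siNeg, and Thy1 at 288 and 370. The intermediate filament gene Vim, the growth factor receptor gene Pdgfra and the collagen gene Col3a1 had ratios of -0.31, -0.20 and -0.18. Of 12 epithelial and mesothelial markers 4 were measured and all 4 were higher (median 0.49), with none above 3.15 FPKM in either library of the comparison. No erythroid marker was measured.

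The machinery of RNA interference was expressed in both libraries. Of 23 measured genes 15 were higher and 8 lower, with a median of 0.06. Ago2, the Argonaute that can cleave, was at 16.0 FPKM in wild type and 16.8 with siNeg. Dicer1, which cuts duplexes to length, was at 5.01, 6.94, 4.68 and 6.52 FPKM, higher in both siRNA libraries. The largest ratio in the group was that of Hsp90aa1, at -0.64, which holds the 6-base word as described above. Tnrc6a, a silencing effector, was lower with siNeg (7.18 FPKM) than in wild type (8.87), and holds 3 copies of the word. The word was in 4 of the 23 genes (17.4%), against 4.87% of the 10856 genes scanned. These 4 had a median of -0.23, against 0.10 for the others. The same ratios chose the word, so these medians are a description and no further support for it.

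Among 18 chaperones of the endoplasmic reticulum 17 were higher, with a median of 0.21, against 0.29 in the second pair. Calr, calreticulin, was at 451 FPKM in wild type, 572 with siNeg, 398 in the knockout and 524 with siDyrk2, and Manf, a secreted stress factor, at 35.0, 43.9, 29.3 and 42.5. Of a list of contractile genes and related targets, the 7 members entered under serum response factor were all higher (median 0.29). The cytoplasmic actins Actg1 (0.48) and Actb (0.46) led them. Of the 13 measured smooth muscle contractile genes in that list 7 were higher and 6 lower (median 0.08). Over the whole list 19 of 28 were higher (median 0.12). Actb was at 630.2 FPKM in wild type, 869 with siNeg, 559 in the knockout and 972 with siDyrk2. Hmox1, a haem-degrading enzyme under the oxidative stress factor NRF2, was at 108, 67.1, 172 and 101 FPKM. The 21 NRF2 targets as a group had a median of -0.04. Ribosomal protein genes (80, median -0.01), collagens and matrix genes (53, median -0.01) and lysosomal and endosomal genes (44, median 0.05) lay near the median of all genes.

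**Figure D5:**
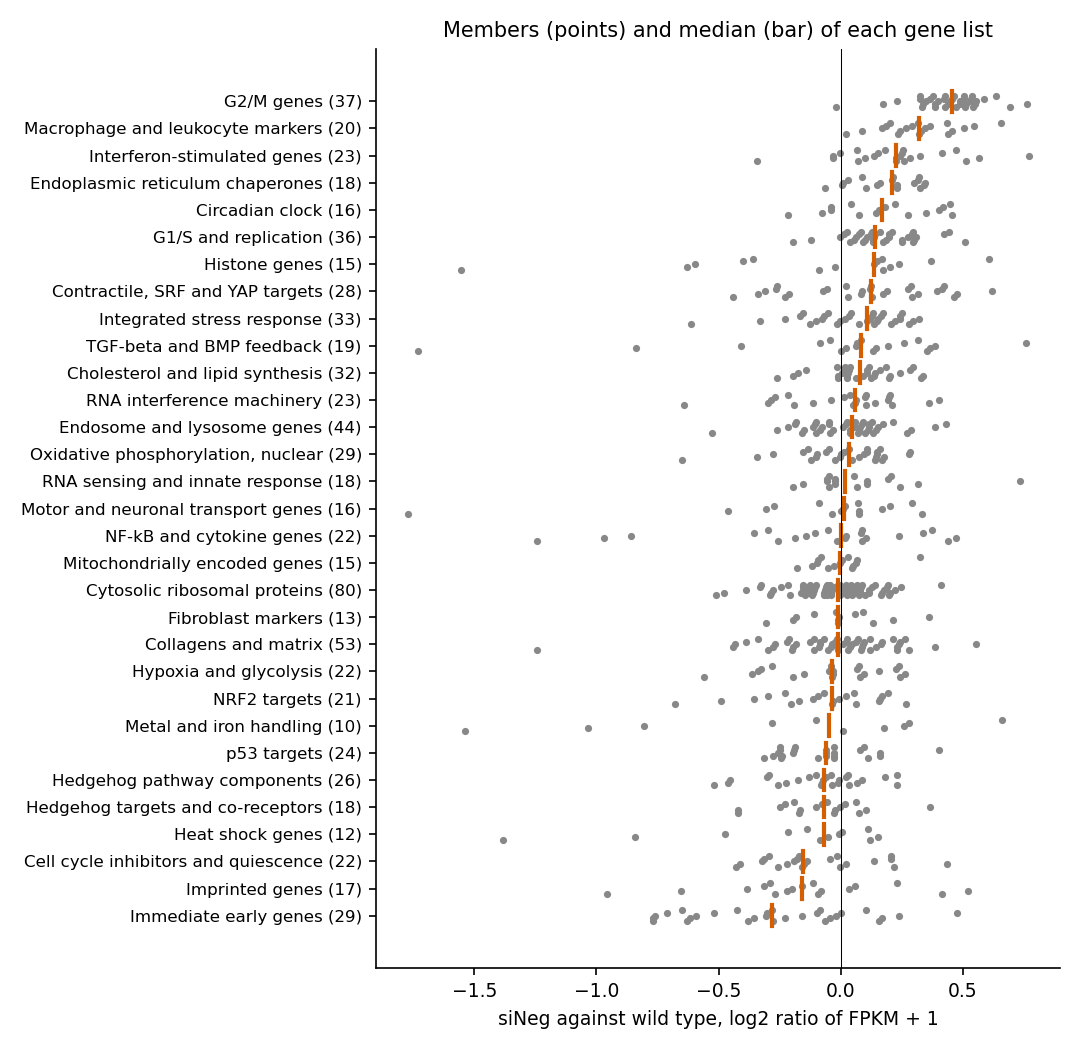
Log2 ratio of FPKM + 1, siNeg against wild type, for each measured member (points) and the median (bar) of every list with at least 10 measured members, with the number measured in brackets. G2/M genes (0.46) and macrophage markers (0.32) lie at the top, immediate early genes (-0.28) at the bottom, and single points far to the left include Kif1a, Grem1, Hist1h2bc and Mt2.

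The Hedgehog genes Gli1, Ptch1 and Gli2 were close in both controls, whereas Hhip and the co-receptors were lower with siNeg. Dyrk2 itself was at 6.59 FPKM in wild type and 7.06 with siNeg, against 0.57 in the knockout and 0.81 with siDyrk2, as the labels say. Gli1, the transcription factor most used as a Hedgehog readout, was at 28.8 FPKM in wild type and 30.2 with siNeg, a ratio of 0.06 with a counting interval that includes equal levels. Ptch1, the receptor and feedback target, was at 16.3 and 16.0 FPKM (fold 0.944 to 1.02), and Gli2 at 20.4 and 20.8 (0.971 to 1.07). Hhip, a membrane protein that traps Hedgehog ligands, was at 3.87 and 2.64 FPKM, 1.47-fold lower with siNeg (1.31 to 1.64). Over the 4 measured feedback targets, Hhip among them, 2 were higher and 2 lower, with ratios from -0.42 to 0.37. The co-receptors Cdon, Boc and Gas1 were all lower, at -0.25, -0.23 and -0.19. Of 18 measured Hedgehog targets and co-receptors 13 were lower and 5 higher, with a median of -0.07. The counting interval lay below equal levels in 8 and above in 3, against 2975 and 2916 of all 12377 genes. Of 26 pathway components 18 were lower and 8 higher, with a median of -0.07, and none was 1.5-fold different.

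A fit over all 4 libraries asked which genes differed between both siRNA libraries and both others. With limma, terms for the siRNA and for lowered Dyrk2, and 1 residual degree of freedom, 0 of 12219 genes passed an adjusted p of 0.05 (0%). The smallest Benjamini-Hochberg adjusted p was 0.350. At an unadjusted p under 0.05 there were 1570 genes (12.8%), 866 higher and 704 lower. Hspa1b, Cd151, Ccl2, Plagl1, Mmp9 and Hmga2 had the smallest unadjusted p of the named genes, and their adjusted p was 0.350 as well in limma. Kif1a and Fkbp9, low in siNeg alone, had adjusted p of 0.437 and 0.427 by limma. The error behind these p-values comes from the disagreement between the pairs in these 4 libraries, drawn partly from all genes, and not from replicates. How Dyrk2 was lowered and the embryo of the knockout enter that disagreement.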

How the data were processed

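PolyA-selected RNA gave stranded libraries, per the labels' protocols. Tools named in the submitters' processing notes are HISAT2 2.0.1 and cutadapt 1.9.1, with the GRCm38 build, and the counting program is not given in the sources used here. As values, the authors deposited FPKM per gene with exonic lengths, per the file headers. FPKM times kilobases summed to 1e+06 in each file, so values are scaled to fragments assigned to genes. Depth was recovered from the FPKM steps of genes of at most 200 bases, searched between 15 and 30 M (M is 1e+06): 23.9 M fragments for wild type, 19.98 for siNeg, 21.9 for the knockout and 21.5 for siDyrk2, with 100% of 341 to 402 such genes at whole fragments within 0.0051 FPKM. A floor of 3 fragments is 0.0627 to 0.0751 FPKM for a gene of 2 kb. Intervals are exact conditional binomial (Clopper-Pearson).

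GENCODE M21 named 55480 of 55573 identifiers. Ratios are log2((FPKM + 1)/(FPKM + 1)), which understates low genes, and folds with intervals use FPKM alone. Genes just inside the limit of 1 FPKM (1 to 1.1, 210 genes) had a median ratio of -0.09 and those just outside (0.9 to 1, 227 genes) -0.03. With 1 library per group, genes were counted by size (2-fold and 1.5-fold). The joint fit used limma 3.58.1 in R 4.3.3 with a mean-variance trend on genes at 1 FPKM in at least 2 libraries, and its script was tested on simulated data.

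The comparison, the 38 gene lists and the naming rule were chosen with earlier results of these data known, and the word scan was added after the values were seen. The rule named Dyrk2 and 4 Hedgehog genes, the 15 highest and 15 lowest protein-coding genes at 5 FPKM or more, up to 4 non-coding genes a direction, up to 6 members a list, the 10 most shared by both pairs in each direction and the 8 standing most alone. Genes shown for the word are those lowest among its holders, or examples by function chosen after their values were seen. Alternatives were other pseudocounts (0.5 and 5), filters (5 FPKM and none), trimmed-mean scaling and centring on the protein-coding median.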

Additional observations from a re-analysis of the deposited data

Results flagged for a closer look

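The results flagged here had ratios in opposite directions in siNeg against wild type and in siDyrk2 against Dyrk2 knockout. They are examples, since other results did as well. Cpd, at -1.08 and 0.38, and the 3 measured skeletal muscle markers, with medians of -0.26 and 0.56, were not flagged. The difference between the pairs was not tested in any of them, and the second pair also differs in how Dyrk2 was lowered. Scg2 was lower with siNeg and higher with siDyrk2, a difference between the log2 ratios of -1.77. Tgfbi was higher with siNeg and lower with siDyrk2, a difference of 1.44. The circadian clock genes had medians of 0.17 and -0.16, a difference of 0.334. Dbp, a clock output factor, was at 11.9 FPKM in wild type, 16.1 with siNeg, 15.7 in the knockout and 7.52 with siDyrk2, and Nr1d1, the repressor REV-ERB alpha, at 7.82, 11.03, 10.3 and 6.37, so that siDyrk2 was the lowest library for both. The macrophage and leukocyte markers had medians of 0.32 and -0.14, a difference of 0.464.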

How the results depend on the processing

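No paired analysis was possible because each group is 1 library and the labels carry no replicate numbers. Without 1 of the 4 libraries the limma fit with both terms has no residual degrees of freedom. The fit without the Dyrk2 term, added after the data were seen, gave 0 genes at an adjusted p of 0.05 without each library in turn, and 436 (without the knockout) to 1446 (without siNeg) at an unadjusted p under 0.05, where the lone library of its arm is assumed to vary like the others. The count of genes at least 2-fold higher and lower, 47 and 72 as reported, was 3 and 8 with a pseudocount of 5 FPKM, 8 and 21 with a filter of 5 FPKM, 2 and 15 for protein-coding genes alone, 175 and 290 at 1.5-fold, and 15 and 28 when the counting interval also had to exclude equal levels. It was 47 and 68 with trimmed-mean scaling, which shifts siNeg by -0.02 on the log2 scale, and 67 and 106 with a pseudocount of 0.5. The limma count was 0 at an adjusted p of 0.05 under the 8 alternatives that kept all 4 libraries, with 1109 to 1751 genes at an unadjusted p under 0.05. For the word GACGTA the difference in medians was -0.089 with a pseudocount of 5, -0.0925 with no filter on low values, -0.206 with a filter of 5 FPKM and -0.149 without the 15 lowest genes. No named gene changed direction under the alternatives run. Of 35 list medians 8 changed sign under one of them, each within 0.05 of 0 as reported, among them RNA sensing, collagens and matrix, and ribosomal proteins.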

Other observations

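Non-coding genes with enough fragments also stood apart. The processed pseudogene Gm45660, on chromosome 8, was at 2.77 FPKM in wild type, 21.6 with siNeg, 8.48 in the knockout and 16.4 with siDyrk2, which is 10 fragments against 65 in the comparison. Pseudogenes share sequence with their parent genes, so where these fragments arose is uncertain. Gas5, a growth arrest transcript that hosts small nucleolar RNAs, was at 72.6, 54.3, 73.2 and 68.3 FPKM, low in siNeg alone.

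Imprinted genes, Plagl1 among them, were mostly lower, 12 of 17 with a median of -0.16 and -0.24 in the second pair. Impact, a regulator of the kinase GCN2, was at 25.9, 16.1, 38.7 and 25.4 FPKM in wild type, siNeg, knockout and siDyrk2, and Igf2, insulin-like growth factor 2, at 59.8, 45.6, 68.5 and 44.4. Of 32 cholesterol and lipid synthesis genes 25 were higher (median 0.08), and in the second pair all 32 were (median 0.59). Of the iron handling genes, the ferritin light chain Ftl1 was at 983 FPKM in wild type and 1193 with siNeg, in the opposite direction to the heavy chain Fth1, and the iron exporter Slc40a1 was at 3.52 and 6.14.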
